A study of Oryza sativa Indica Group with 8 samples.

Results

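Phytochromes and cryptochromes are the photoreceptors through which rice leaves sense red, far-red and blue light. The 6 genes described here are the phytochrome genes PHYA (LOC_Os03g51030), PHYB (LOC_Os03g19590) and PHYC (LOC_Os03g54084) and the cryptochrome genes CRY1a (LOC_Os02g36380), CRY1b (LOC_Os04g37920) and CRY2 (LOC_Os02g41550). They were taken by locus identifier from the 35961 loci of the count table, without use of their values. By their locus names, the phytochrome genes lie on chromosome 3, CRY1a and CRY2 on chromosome 2 and CRY1b on chromosome 4 of the Nipponbare annotation. All 6 were measured in every library, and all passed the filter on low expression, which kept 19280 genes.

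The libraries were made from leaves of 15-day-old plants, harvested in the morning. The growth chamber was kept at 28°C, and each day had a light period of 14 h and a dark period of 10 h. GL is the indica variety Guangluai 4, which carries a natural loss-of-function allele of the clock gene OsPRR37. OE5 is a single transgenic line that overexpresses OsPRR37 in the GL background, and the promoter of the transgene is not given in the sources used here. Each genotype had 2 RNA-seq libraries, called GL-1, GL-2, OE5-1 and OE5-2. The comparison asks which transcripts differ when this repressor of the circadian clock is overexpressed, here for the receptors that bring light into the clock and the day-length pathway. The counts on genes summed to between 43423801 and 48284992 per library. The overexpressed locus and leaf marker genes were not analysed here, because no source used here pairs their loci with names, so neither the transgene nor the tissue label was checked.

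Phytochromes carry a bilin chromophore and switch between a red-absorbing and a far-red-absorbing form. The far-red-absorbing form is the active one, and in the nucleus it acts on bHLH transcription factors and on the COP1 ubiquitin ligase that removes light-response regulators. Cryptochromes are flavoproteins related to DNA photolyases, which respond to blue light and also act on COP1. Both families set seedling growth in light, feed into the circadian clock and take part in the control of heading date by day length. In a bulk leaf sample, a change in the share of a cell type and a change in transcript per cell cannot be told apart.

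None of the 6 photoreceptor genes was called as changed in OE5. A call required a change of more than 1.5-fold and an adjusted p under 0.05, and 3.39% of the 19280 tested genes met it with edgeR's quasi-likelihood test. No member had an unadjusted p under 0.05 in this fit either, a limit passed by 15.2% of the tested genes. Under other settings, PHYA passed that limit with library totals, with limma-trend and without GL-2, where its adjusted p was 0.156, 0.227 and 0.0572, and CRY1b passed it without GL-1, with an adjusted p of 0.0726. DESeq2, which called 4% of the genes, and limma-trend on log2(TPM + 1), which called 2.23%, also called 0 of the 6. The median log2 fold change of the 6 genes was -0.02, beside -0.01 over all tested genes. Their median absolute log2 fold change was 0.09, beside 0.15 over all tested genes.

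In the edgeR fit of all 4 libraries, the estimates were narrow enough to bound the change at the morning harvest, the only time sampled here. The 95% interval of each of the 6 fold changes lay wholly inside the 1.5-fold limit, as it did for 55.9% of the tested genes. In log2 units, the limit is 0.58 in either direction, and the 6 intervals ran from -0.55 at the lowest to 0.49 at the highest. This held for all 6 genes with RLE or upper-quartile normalization, with the filter by counts and with no filter. It held for 5 of the 6 with library totals alone, where PHYA reached 0.62, and with the replicate block, where CRY1b reached -0.60. The bound did not hold for every gene when a library was left out. PHYA passed the limit without GL-2 or without OE5-2, CRY1b without GL-1, and CRY1a and CRY1b without OE5-1. The intervals went furthest past the limit when an OE5 library was left out.

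**Figure D1:**
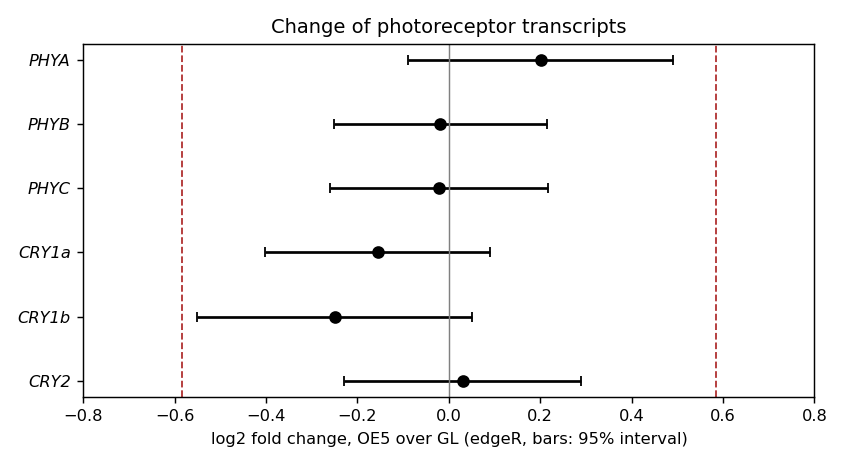
Log2 fold change of the 6 photoreceptor genes in OE5 over GL (x axis) from edgeR, with points for the estimate, bars for the 95% interval and dashed lines at the 1.5-fold limit. All 6 bars cross 0 and end inside the limit, with PHYA highest at 0.20 and CRY1b lowest at -0.25.

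The levels of the genes were compared per gene length, as TPM (transcript abundance scaled to gene length and to the same total in each library). CRY1b had the highest level, with a mean over the 4 libraries of 96.5 TPM, followed by CRY1a with 69.7 TPM, CRY2 with 30.3 TPM, PHYC with 27.2 TPM, PHYB with 16.5 TPM and PHYA with 12.7 TPM. This order was found within each of the 4 libraries. Over all libraries, the TPM range of CRY2 overlapped that of PHYC and the range of PHYB overlapped that of PHYA, while the other neighbours in the order were separate. Among the tested genes, 94.3% had a mean TPM at or below that of CRY1b, and 59.6% at or below that of PHYA. Raw counts would give another picture. PHYB and PHYC had 2161 and 2162 counts in GL-1, but PHYB collected 138 counts per TPM and PHYC 86.1, so in GL-1 the level of PHYB per length was 0.621 times that of PHYC.

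**Figure D2:**
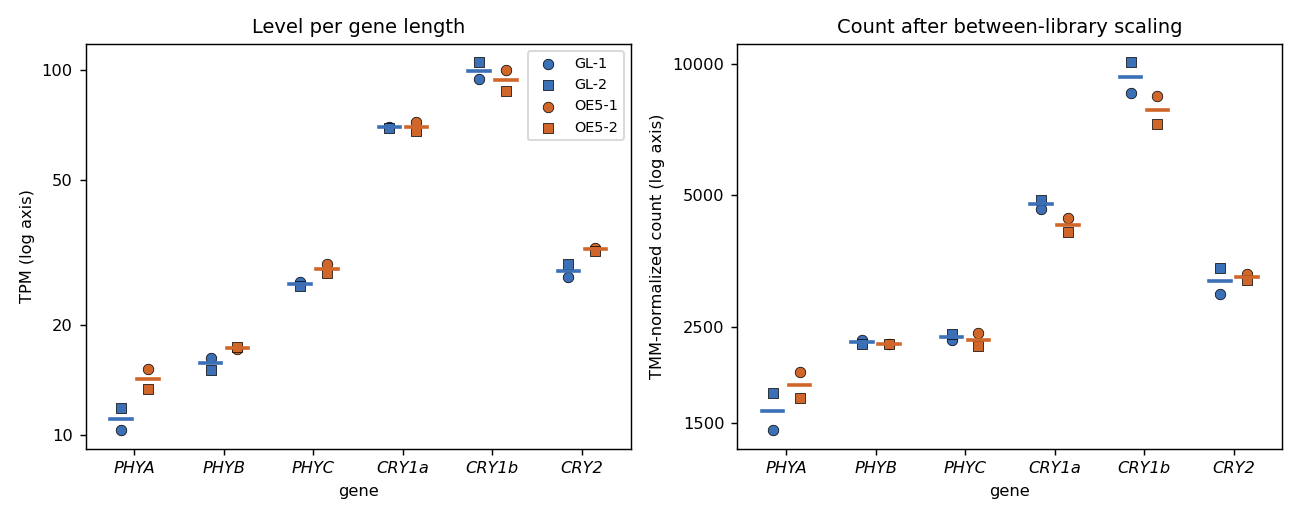
Level of each photoreceptor gene in the 4 libraries as TPM (left, log axis) and as TMM-normalized count (right, log axis), with circles for replicate 1, squares for replicate 2 and short lines for the mean of each genotype. PHYA, PHYB, PHYC and CRY2 lie higher in both OE5 libraries as TPM, whereas PHYB, CRY1a and CRY1b lie lower in both OE5 libraries as normalized counts.

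Among the phytochromes, PHYA had the largest estimated change. It encodes the light-labile receptor that senses continuous far-red light and very weak light. PHYA had 1339 and 1582 counts in GL-1 and GL-2 and 2103 and 1897 in OE5-1 and OE5-2. Normalized by TMM, these were 1446, 1758, 1965 and 1718. The group means were 1602 ± 221 in GL and 1842 ± 175 in OE5 (SD, n = 2 each), and the genotypes overlapped because OE5-2 lay below GL-2. The log2 fold change of PHYA was 0.20 (standard error 0.13, 95% interval -0.09 to 0.49, adjusted p = 0.549 from edgeR). The GL replicates alone differed by 0.28 in log2 units, more than the genotypes did. If reads are taken as independent, the count in GL-1 had an exact Poisson 95% interval of 1268 to 1413. The gene counts of GL-1 summed to more than its mapped read pairs in the study, so reads were not all independent. This interval is therefore too narrow. The estimate for PHYA was 0.08 without GL-1 and 0.35 without GL-2, with adjusted p-values of 0.777 and 0.0572 by edgeR.

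PHYB encodes the light-stable phytochrome that senses red light and the shade of neighbouring plants. Its normalized counts were 2334 and 2286 in GL-1 and GL-2 and 2275 and 2284 in OE5-1 and OE5-2. Both OE5 libraries thus lay below both GL libraries, but by a margin of less than 2 counts. The log2 fold change of PHYB was -0.02 (standard error 0.10, 95% interval -0.25 to 0.21, adjusted p = 0.96 from edgeR). PHYC, whose protein in rice needs phyB for its stability, had normalized counts of 2335 and 2402 in GL-1 and GL-2 and 2412 and 2253 in OE5-1 and OE5-2. The OE5 values of PHYC enclosed the GL values. Its log2 fold change was -0.02 (standard error 0.11, 95% interval -0.26 to 0.22, adjusted p = 0.954 from edgeR).

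Among the cryptochromes, CRY1b and CRY1a had the lowest fold changes. The CRY1 proteins are the main blue-light receptors of seedling growth, and rice has a pair of CRY1 genes. CRY1b had 7929 and 9058 counts in GL-1 and GL-2 and 9002 and 8015 in OE5-1 and OE5-2, or 8563, 10066, 8412 and 7259 as normalized counts. Both OE5 libraries were lower than both GL libraries, with OE5-1 close below GL-1. The means were 9315 ± 1063 in GL and 7836 ± 815 in OE5 (SD, n = 2 each). The log2 fold change of CRY1b was -0.25 (standard error 0.13, 95% interval -0.55 to 0.05, adjusted p = 0.44 from edgeR), the smallest adjusted p of the 6 genes. It was -0.35 without GL-1 and -0.12 without GL-2, with adjusted p-values of 0.0726 and 0.671 by edgeR, and -0.36 without OE5-1 and -0.15 without OE5-2.

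CRY1a had normalized counts of 4647 and 4875 in GL-1 and GL-2 and 4424 and 4123 in OE5-1 and OE5-2, so that the genotypes did not overlap. Its log2 fold change was -0.16 (standard error 0.11, 95% interval -0.40 to 0.09, adjusted p = 0.595 from edgeR). CRY2, whose protein is degraded in blue light and which promotes flowering in rice, had normalized counts of 2968 and 3400 in GL-1 and GL-2. In OE5-1 and OE5-2 it had 3305 and 3196, both between the GL values. The log2 fold change of CRY2 was 0.03 (standard error 0.11, 95% interval -0.23 to 0.29, adjusted p = 0.945 from edgeR). As normalized counts, GL-1 was below GL-2 and OE5-1 above OE5-2 in each of PHYA, PHYC, CRY1a, CRY1b and CRY2. PHYB had the reverse order. The share of all tested genes with either order was not computed, so neither is read as a trait of the photoreceptor genes. On the TPM scale, PHYC and CRY1a were higher in GL-1 than in GL-2.

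The direction of the differences of PHYB, PHYC and CRY1a depended on the scaling between libraries. PHYA and CRY2 stayed above 0 and CRY1b below 0 under each scaling. As normalized counts, 3 of the 6 genes (PHYB, CRY1a and CRY1b) did not overlap between genotypes, and all 3 were lower in OE5. Of the tested genes, 44.6% did not overlap and 22.5% were lower in both OE5 libraries. As TPM, 4 of the 6 genes (PHYA, PHYB, PHYC and CRY2) were higher in both OE5 libraries, beside 45% of the tested genes. PHYA had 10.3 and 11.9 TPM in GL-1 and GL-2 and 15.2 and 13.4 TPM in OE5-1 and OE5-2. PHYB had 16.3 and 15.1 TPM in the GL libraries and 17.2 and 17.5 TPM in the OE5 libraries, and was thus lower in OE5 on the scale of normalized counts and higher on that of TPM. The median of log2(TPM + 1) over the tested genes was itself 0.15 higher in OE5, which is about as large as the TPM differences of PHYB and PHYC (0.13 each by limma-trend on this scale). CRY1a had 69.6 ± 0.317 TPM in GL and 69.9 ± 2.95 TPM in OE5 (SD, n = 2 each), so its difference between genotypes was smaller than that of the median gene by about that shift.

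**Figure D3:**
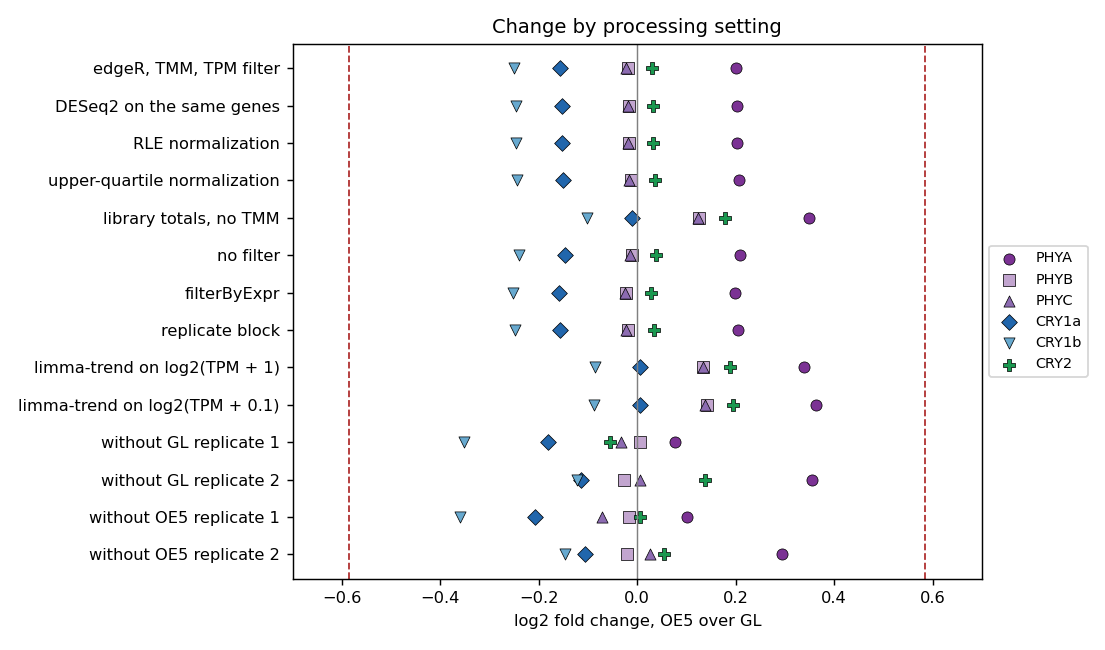
Log2 fold change of each photoreceptor gene in OE5 over GL (x axis) under each processing setting (y axis), with dashed lines at the 1.5-fold limit. PHYA lies above 0 and CRY1b below 0 in every setting shown, from 0.08 to 0.36 and from -0.36 to -0.09, whereas the other 4 genes lie on either side of 0.

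Shares within a family do not depend on the scaling between libraries. PHYC made up 49.6% and 48.6% of the summed phytochrome TPM in GL-1 and GL-2 and 47.5% and 47.3% in OE5-1 and OE5-2. PHYA made up 19.5% and 22.6% in GL and 24.6% and 22.9% in OE5, with OE5-2 just above GL-2. The share of PHYB overlapped between genotypes, with 30.8% and 28.8% in GL and 27.9% and 29.8% in OE5. The difference for PHYA was 2.69 percentage points with a pooled SD of 1.76, and it was 1.14 points without GL-1 and 4.23 points without GL-2.

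CRY2 had the cryptochrome share with the largest difference relative to its pooled SD, and CRY1b the one with the largest difference in points. The shares of a family sum to the whole, so a higher share need not mean more transcript. With TMM, the log2 fold change of CRY2 itself was 0.03, beside -0.25 for CRY1b and -0.16 for CRY1a. CRY2 made up 14.2% and 14.4% of the summed cryptochrome TPM in GL-1 and GL-2 and 16.0% and 17.1% in OE5-1 and OE5-2. The means were 14.3 ± 0.182% in GL and 16.5 ± 0.789% in OE5 (SD, n = 2 each), and the difference of 2.20 percentage points (pooled SD 0.573) ranged from 1.65 to 2.76 when a library was left out. CRY1b made up 49.3% and 51.5% in GL and 48.9% and 46.7% in OE5, a difference of -2.58 points with a pooled SD of 1.56. CRY1a overlapped between genotypes, with 36.6% and 34.1% in GL and 35.2% and 36.3% in OE5. The ratio of CRY2 to CRY1b was 0.284 ± 0.00521 in GL and 0.346 ± 0.0278 in OE5 (SD, n = 2 each), whereas the ratio of CRY1b to CRY1a overlapped, with 1.35 and 1.51 in GL and 1.39 and 1.29 in OE5.

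**Figure D4:**
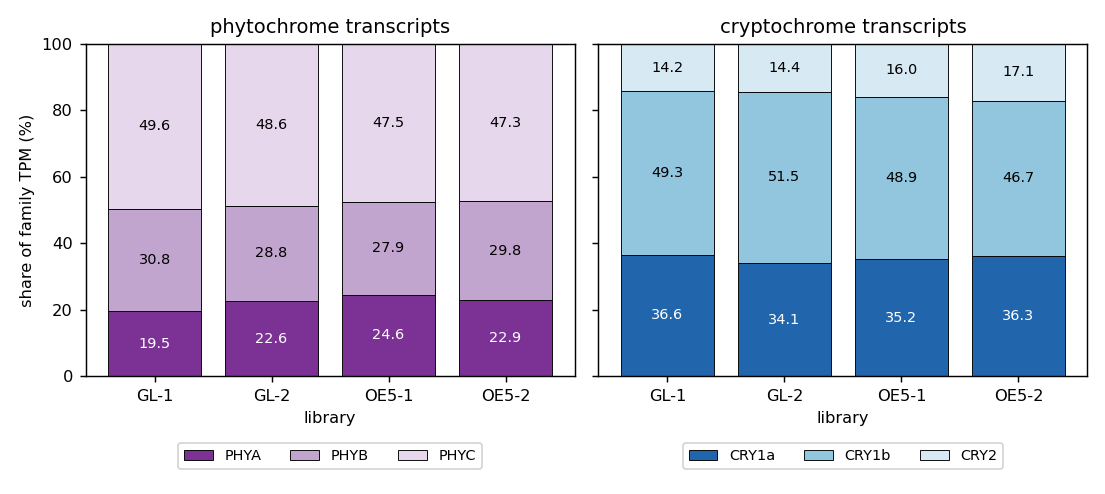
Share of each gene in the summed TPM of its family (y axis, percent) in the 4 libraries, phytochromes on the left and cryptochromes on the right. The CRY2 share is 14.2% and 14.4% in GL against 16.0% and 17.1% in OE5, and the PHYC share is the largest of the phytochromes in every library shown.

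Between the families, the summed cryptochrome TPM was 3.61 and 3.87 times the summed phytochrome TPM in GL-1 and GL-2 and 3.31 and 3.19 times in OE5-1 and OE5-2. This ratio was chosen after the values were seen, and the ratios between single members were not among the planned comparisons either. The phytochrome sum was 52.8 ± 0.211 TPM in GL and 60.2 ± 2.23 TPM in OE5, and the cryptochrome sum was 197 ± 8.84 TPM in GL and 196 ± 12.5 TPM in OE5 (SD, n = 2 each). The median of log2(TPM + 1) over the tested genes was also 0.15 higher in OE5. The change of each sum thus depends on the scaling between libraries, whereas their ratio does not. The log2 ratio was 0.20 lower in OE5 (-0.20, pooled SD 0.06), and between -0.25 and -0.15 when a library was left out. Of the 13 shares and ratios compared, 8 had a two-sided exact permutation p = 0.33, the smallest that 2 libraries against 2 allow, with a smallest adjusted p of 0.542. With so few libraries, this test cannot reach a small p whatever the values, and it neither supports nor speaks against a difference in any share or ratio.

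**Figure D5:**
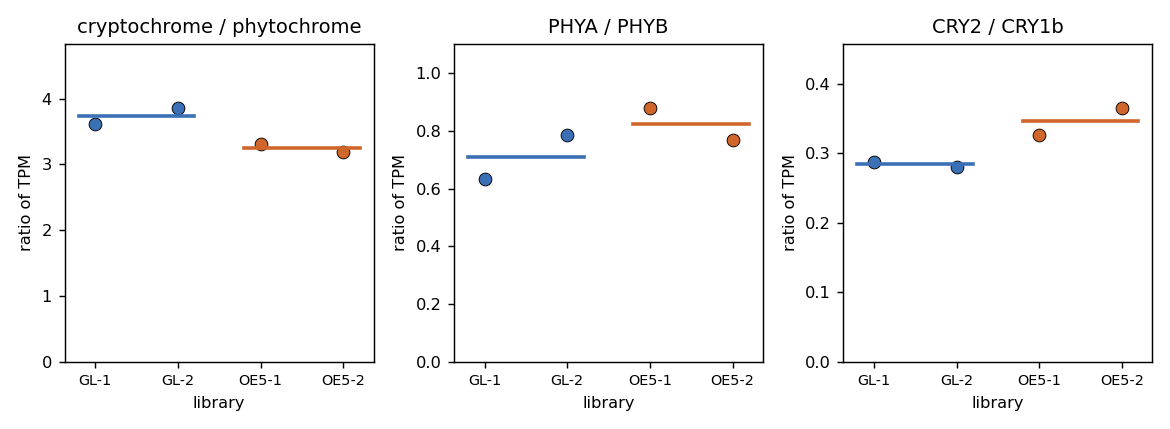
Ratios of TPM within each library (y axis), with blue points for GL, orange points for OE5 and lines for the genotype means. The ratio of cryptochromes to phytochromes is lower and that of CRY2 to CRY1b higher in both OE5 libraries, while the ratio of PHYA to PHYB overlaps, with 0.785 in GL-2 and 0.768 in OE5-2.

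Many tested genes lay close to the 6 genes over the 4 libraries. By the root mean square difference of centred log2 normalized counts over the 4 libraries, 5436 tested genes (28.2%) lay within 0.1 of PHYB, 4982 of PHYC, 3914 of CRY2 and 3827 of CRY1a. Fewer lay as close to CRY1b, with 1307, and to PHYA, with 1127 (5.85%). Genes that vary little lie close together by this measure, so the numbers do not show a shared pattern. With 4 libraries, no gene can be singled out as following a photoreceptor.

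The only other gene of light signalling that the sources pair with its locus is OsRUP (LOC_Os02g02380). In Arabidopsis, RUP proteins return the UV-B photoreceptor UVR8 to its inactive form and thus dampen its signalling. OsRUP had normalized counts of 674 and 817 in GL-1 and GL-2 and 2316 and 1944 in OE5-1 and OE5-2, a difference of 1.51 in log2 units. Its locus is named because the study listed it among genes that changed in these same libraries. The difference, from the same edgeR fit, is therefore given as a description only, and its p-value is not used. The replicates of OsRUP spread about as widely as those of PHYA, with 0.28 in log2 units between the GL libraries in both genes.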

How the data were processed

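Per the labels and the study's methods, the authors trimmed the reads with fastp 0.20.1, used HISAT2 2.1.0 to map them to the MSU v7.0 assembly of Nipponbare, and obtained counts and TPM from TPMCalculator. Raw reads per locus make up the deposited counts. The deposited TPM values are scaled by the authors to gene length and library total. The handling of strand, multi-mapped reads and overlapping genes is not given in the sources used here, so antisense or overlapping transcripts cannot be told apart. That replicates are separate biological samples is taken from the study's methods.

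The main test was that of edgeR 4.0.16 in R 4.3.3 (TMM, robust quasi-likelihood fit, Benjamini-Hochberg adjustment over all 19280 genes whose TPM summed to at least 2 in either genotype, prior count 2). TMM factors were 0.990 and 0.914 in GL and 1.04 and 1.06 in OE5. Normalized counts are counts over the relative effective library size. Standard errors were derived from F and the size of the log2 fold change (size divided by the root of F). DESeq2 1.42.0, limma 3.58.1 and the other settings of the closing section were alternatives, and the fit was tested on simulated data.

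The rule named all 6 members, OsRUP and, for a called member, the gene nearest in pattern. No member was called, so no nearest gene is named. Members, list and rule were chosen with earlier results of these data known. The names came with the list of loci, since the RefSeq table matched 0 of the identifiers. No sequence of the members was used here. The bisulfite libraries were not analysed here.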

Additional observations from a re-analysis of the deposited data

How the results depend on the processing

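No photoreceptor gene was called under any of the 13 alternatives to the fit, nor without a fold limit. PHYA and CRY1b kept their direction in all 13. PHYB reversed to 0.12 with library totals, 0.13 and 0.14 with limma-trend at pseudocounts of 1 and 0.1, and ranged from -0.027 to 0.0060 when a library was left out. PHYC reversed to 0.12, 0.13 and 0.14 under the same settings and ranged from -0.072 to 0.026 over the libraries left out. CRY1a reversed to 0.0048 and 0.0049 with limma-trend, and CRY2 ranged from -0.055 to 0.14 over the libraries left out. Library totals and limma-trend placed the median gene 0.14 to 0.16 higher in OE5 than in GL, and 79.8% of the calls with library totals were higher in OE5, against 62.3% with TMM. The causes of the other reversals were not tested.

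The number of genes called, 653, was 1207 without a filter (35961 genes tested), 429 and 370 with limma-trend, and 194 to 1270 when a library was left out, where the lone library was assumed to vary like the pair. With the replicate block 708 genes and with the crossed pairing, chosen after seeing the data, 751 genes were called, none of them a member in either case. Same-numbered libraries had a deviation correlation of 0.126 (Pearson) and -0.124 (Spearman) across genes, so the numbers were not taken as pairs. The block changed the direction of no member. The sign of the PHYB and CRY1a shares turned when a library was left out, from -2.00 to 0.07 and from -0.85 to 1.61 percentage points. With 2 libraries per genotype, the standard errors of the 6 genes, from 0.10 to 0.13 in log2 units, limit the changes that could be called.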
